A study of Arabidopsis thaliana with 12 samples.

Results

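Jasmonate, the plant hormone of wounding and of attack by insects and necrotrophic fungi, switches on separate sets of output genes, and 9 of these were followed across first leaves of Arabidopsis thaliana. They were picked by gene identifier from the 34133 identifiers in the files. VSP1 (AT5G24780), VSP2 (AT5G24770) and CORI3 (AT4G23600) stand for the MYC branch. PDF1.2 (AT5G44420), PDF1.2b (AT2G26020), PDF1.2c (AT5G44430), ORA59 (AT1G06160) and ERF1 (AT3G23240) stand for the ERF branch, while THI2.1 (AT1G72260) was set in neither. The RNA came from seedlings grown for 14 days on Murashige and Skoog plates with 1% sucrose. There were 2 libraries of the hybrid Col-0×Aa-0, 2 of the hybrid Col-0×Per-1, 2 of each natural accession Aa-0 and Per-1, and 4 of Col-0. Col-0 is the parent common to both hybrids and the accession of the reference genome. No group carried a transgene, mutation or treatment by the labels, which do not say which parent was the mother of a hybrid. Whether replicates were grown apart is not stated either, and the p-values therefore reflect only how far these libraries scatter, which may be technical.

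When jasmonate is bound to isoleucine it is perceived by the receptor COI1, and the JAZ repressors are then destroyed. This frees the transcription factors MYC2, MYC3 and MYC4, which turn on wound genes such as the VSP genes. Together with ethylene, jasmonate instead acts through the transcription factors ORA59 and ERF1, which turn on defensins such as PDF1.2. In leaves the MYC branch is known for defence against insects and the ERF branch for defence against necrotrophic fungi, and each branch can hold the other down.

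The values were FPKM, in which fragment numbers are divided by the length of the transcript and the size of the library, so levels can be set side by side between genes. Between 20772 and 21781 genes were above 0 per library. Absolute depth is unknown, but the steps between low values put the depth relative to Col-0 replicate 1 at 0.65 in Col-0×Per-1 replicate 2 and between 0.86 and 1.14 elsewhere. The Col-0 libraries stood apart from each other: the clock gene LHY had 50.6 and 51.5 FPKM in the first pair of replicates, but only 1.57 FPKM in replicate 3 and 1.85 FPKM in replicate 4. The other groups held 4.39 to 10.2 FPKM. RBCS1A, a Rubisco subunit that all green cells use, was at 16409 FPKM or more in 10 libraries and listed at 0 in the remaining pair, Col-0 replicates 1 and 2, so an exact 0 is given here as a listing. The 5 leaf markers summed to between 48828 and 62893 FPKM in the other groups, and in Col-0 to 35325 and 36084 FPKM in replicates 1 and 2, where RBCS1A was listed at 0, and 51325 and 52726 FPKM in replicates 3 and 4. Without RBCS1A the sums were 30798 to 39370 FPKM in the other groups and 31816 to 36084 FPKM in Col-0. The 7 flower and meristem markers summed to at most 1.18 FPKM, LFY and WUS being at 0 throughout, and 5 of 7 root markers were under 1 FPKM in every library. The root sum was 12.2 to 23.9 FPKM, almost all of it SCR and SHR, which leaves also express. Because whole leaves were sequenced, fewer cells that express a gene and less RNA per cell cannot be told apart.

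A gene was tested if it reached 1 FPKM in at least 2 libraries, which 17203 genes did. Of the 9 members 8 were tested, of which VSP1 reached 1 FPKM in 3 libraries, ERF1 in 5 and the others in 10 or more. THI2.1, a thionin gene of antimicrobial defence that also answers to jasmonate, was not tested. It was listed at 0 in 11 of the 12 libraries and at 0.19 FPKM in Aa-0 replicate 2. All differences below are on the log2(FPKM + 1) scale, which understates changes of low genes, with standard errors and adjusted p-values from limma over all tested genes. Values near 1 FPKM, as for VSP1, ERF1 and parts of PDF1.2b, are the most compressed.

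**Figure D1:**
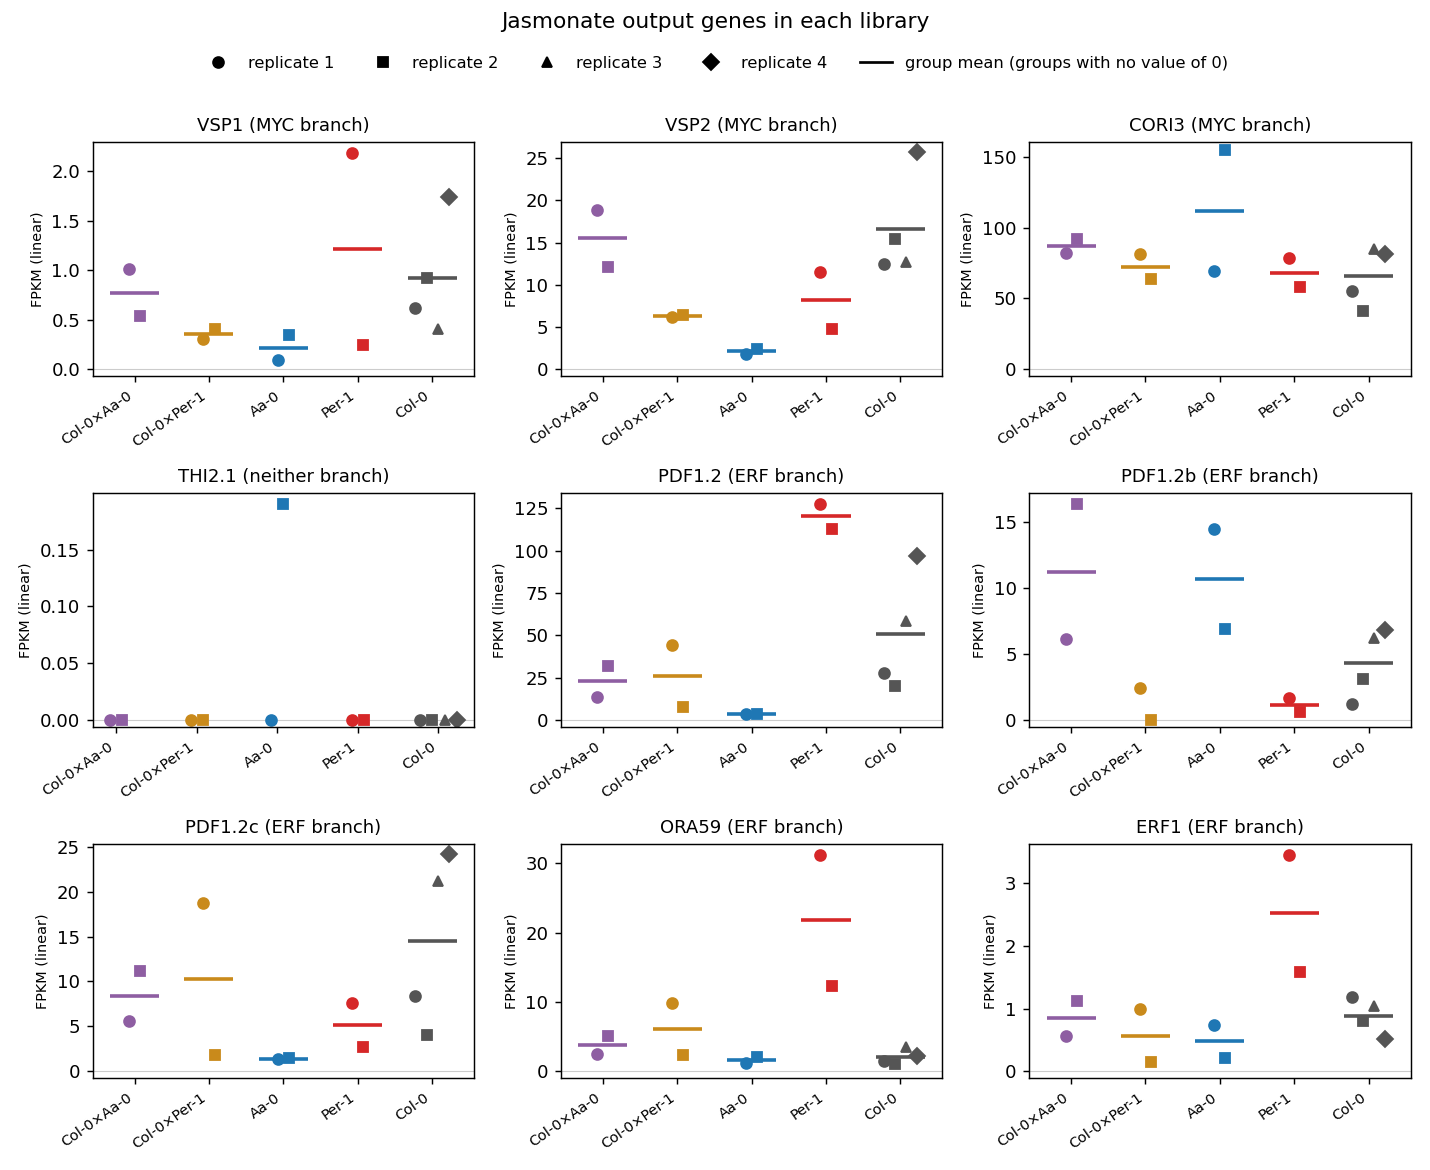
FPKM (linear axis, a scale of its own in each panel) of the 9 members in each of the 12 libraries, with groups on the horizontal axis, 1 symbol per library and a bar at the mean of groups with no value of 0. PDF1.2, ORA59 and ERF1 lie highest in Per-1, VSP2 and PDF1.2 lie lowest in Aa-0, and PDF1.2b is high in Aa-0 and Col-0×Aa-0.

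The MYC branch was led in level by CORI3 and in contrast by VSP2. VSP2, a vegetative storage protein with phosphatase activity that defends against insects, had 1.79 and 2.44 FPKM in Aa-0, against 12.5, 15.4, 12.6 and 25.7 FPKM in Col-0. Both Aa-0 libraries were below every other library of the series. The difference was -2.44 ± 0.35 (adjusted p = 0.0011), and it was -2.62 with Col-0 replicates 3 and 4 alone (adjusted p = 0.0035) and -2.27 with replicates 1 and 2 alone (adjusted p = 0.0018). Per-1 had 11.6 and 4.75 FPKM of VSP2, also under the lowest Col-0 library, but the difference of -0.99 ± 0.35 did not pass (adjusted p = 0.0622).

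VSP2 was higher in Col-0×Aa-0 than in Col-0×Per-1, but the difference of 1.15 ± 0.40 did not pass by limma (adjusted p = 0.189). Col-0×Aa-0 had 18.9 and 12.2 FPKM, within or just under the Col-0 range. It was above Aa-0 by 2.38 ± 0.40 (adjusted p = 0.0088), a call that ended without Aa-0 replicate 1 (adjusted p = 0.0885) or Col-0×Aa-0 replicate 1 (adjusted p = 0.0949), and it differed from Col-0 by -0.06 ± 0.35. Col-0×Per-1 had 6.21 and 6.42 FPKM, inside the Per-1 range and below all 4 Col-0 libraries. Its difference from Col-0, -1.20 ± 0.35, passed narrowly (adjusted p = 0.0384) and ended without either Col-0×Per-1 library (adjusted p = 0.133 and 0.21), without Col-0 replicate 2 (0.0566) or 4 (0.056), with median-ratio scaling (0.116) and when Col-0 replicates 1 and 2 stood alone (0.0644). In order of mean level VSP2 ran Col-0, Col-0×Aa-0, Per-1, Col-0×Per-1 and Aa-0. The ranges of Col-0 and Col-0×Aa-0 overlapped, as did those of Per-1 and Col-0×Per-1.

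VSP1, the neighbouring copy of VSP2, was barely present, at 1.01 and 0.54 FPKM in Col-0×Aa-0, 0.31 and 0.41 FPKM in Col-0×Per-1, 0.09 and 0.35 FPKM in Aa-0, 2.19 and 0.25 FPKM in Per-1, and 0.62, 0.92, 0.41 and 1.74 FPKM in Col-0. It made up 3.14% to 15.9% of the summed FPKM of VSP1 and VSP2. Both Aa-0 libraries were below all 4 Col-0 libraries, as with VSP2, but by limma 0 of the 11 VSP1 comparisons passed, and 0 had an unadjusted p under 0.05. The coding sequences of VSP1 and VSP2 were 88.1% identical in the TAIR10.1 reference, and only 5 of the 1459 stretches of 50 bases in the VSP2 transcript occurred in that of VSP1.

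CORI3, a cystine lyase induced by jasmonate and by its bacterial mimic coronatine, was the most abundant member in 9 of the 12 libraries and did not follow VSP2. It had 81.8 and 92 FPKM in Col-0×Aa-0, 81 and 63.7 FPKM in Col-0×Per-1, 69.2 and 154.6 FPKM in Aa-0, 78.5 and 57.9 FPKM in Per-1, and 55.2, 41.1, 85.1 and 81.5 FPKM in Col-0. The Col-0 libraries spanned most of the other groups, with replicates 1 and 2 the lowest of all 12. In Aa-0, where VSP2 was lowest, CORI3 stood above Col-0 by 0.71 ± 0.35 and did not pass (adjusted p = 0.204). With Col-0 replicates 1 and 2 alone that difference was 1.1 (adjusted p = 0.0449). Across the 12 libraries Pearson's r between VSP2 and CORI3 was -0.26, against 0.73 between VSP2 and VSP1, as a description of libraries that share accessions.

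The regulators of the ERF branch were highest in Per-1. ORA59, the factor that joins the jasmonate and ethylene signals, had 31.2 and 12.3 FPKM in Per-1, against 1.42, 1.01, 3.48 and 2.27 FPKM in Col-0. Both Per-1 libraries were above every other library of the series. The difference was 2.83 ± 0.52 (adjusted p = 0.004), and it was 2.44 with Col-0 replicates 3 and 4 alone (adjusted p = 0.0167). It was 2.19 without Per-1 replicate 1, where it no longer passed (adjusted p = 0.0589). In Aa-0 the gene had 1.23 and 2.09 FPKM, inside the Col-0 range (difference -0.15 ± 0.52, adjusted p = 0.882). Col-0×Aa-0 had 2.49 and 5.04 FPKM and Col-0×Per-1 had 9.91 and 2.3 FPKM, so each hybrid overlapped Col-0 and both were below Per-1.

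ERF1, which ethylene and jasmonate also induce, followed the same order at its head, at 3.46 and 1.58 FPKM in Per-1 and 1.18, 0.8, 1.05 and 0.52 FPKM in Col-0. The difference of 0.86 ± 0.29 just missed (adjusted p = 0.0543), and it passed with median-ratio scaling (0.98, adjusted p = 0.0429). The gene had 0.74 and 0.22 FPKM in Aa-0, 0.57 and 1.12 FPKM in Col-0×Aa-0, and 0.99 and 0.15 FPKM in Col-0×Per-1. Both Per-1 libraries were thus above all 10 others. Pearson's r between ORA59 and ERF1 over the 12 libraries was 0.77.

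The 3 PDF1.2 genes encode nearly the same antifungal defensin, and their coding sequences are shown because the copies differed in which accession carried the higher level. Each is 243 bases long and they differ at 22 positions, which are in capitals (5′ to 3′, RefSeq TAIR10.1 reference of Col-0). PDF1.2 lies at chr5:17906968-17907638 on the minus strand, PDF1.2c beside it at chr5:17908850-17909507 on the minus strand, and PDF1.2b at chr2:11089123-11089805 on the plus strand.
PDF1.2: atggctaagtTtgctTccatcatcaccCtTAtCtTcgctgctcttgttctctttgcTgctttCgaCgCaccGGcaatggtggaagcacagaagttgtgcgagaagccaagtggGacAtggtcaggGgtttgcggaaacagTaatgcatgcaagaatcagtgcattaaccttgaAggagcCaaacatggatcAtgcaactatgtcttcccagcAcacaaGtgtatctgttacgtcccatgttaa
PDF1.2b: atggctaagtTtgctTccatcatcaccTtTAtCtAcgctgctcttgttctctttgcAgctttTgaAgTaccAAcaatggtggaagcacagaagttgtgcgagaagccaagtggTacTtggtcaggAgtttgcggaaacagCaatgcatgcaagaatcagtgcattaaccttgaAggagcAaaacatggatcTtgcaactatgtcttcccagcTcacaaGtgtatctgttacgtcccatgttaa
PDF1.2c: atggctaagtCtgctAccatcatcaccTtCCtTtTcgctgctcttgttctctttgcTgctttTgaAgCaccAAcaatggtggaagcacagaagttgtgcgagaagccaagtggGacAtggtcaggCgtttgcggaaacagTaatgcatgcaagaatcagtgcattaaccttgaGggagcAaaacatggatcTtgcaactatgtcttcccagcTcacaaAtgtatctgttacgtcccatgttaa

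Pairwise the copies are 93.8% (PDF1.2 and PDF1.2b), 93.4% (PDF1.2 and PDF1.2c) and 94.2% (PDF1.2b and PDF1.2c) identical over these bases. Of the stretches of 50 bases in the PDF1.2 transcript, 3 of 530 occurred without a mismatch in another gene, PDF1.2c, and of those in PDF1.2b 28 of 560 occurred in PDF1.3. How the authors' counting treated reads with mismatches to several copies is not given in the sources used here, so the split between copies is uncertain. The reads of Aa-0 and Per-1 were also set against the Col-0 sequence, and whether their alleles differ from it was not tested.

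PDF1.2 had 3.81 and 3.45 FPKM in Aa-0, against 27.9, 20.2, 58.2 and 96.6 FPKM in Col-0. Both Aa-0 libraries were below every other library. The difference was -3.23 ± 0.70 (adjusted p = 0.0122), -2.42 against Col-0 replicates 1 and 2 alone, -4.04 against replicates 3 and 4 alone, and the call ended without Aa-0 replicate 1 (adjusted p = 0.0871) or replicate 2 (adjusted p = 0.0577). Per-1 had 127.6 and 112.6 FPKM, above every other library. Its difference from Col-0, 1.48 ± 0.70, did not pass (adjusted p = 0.146). It was 2.29 against Col-0 replicates 1 and 2 alone (adjusted p = 0.0279) and 0.67 against replicates 3 and 4 alone (adjusted p = 0.467). Both hybrids lay between Aa-0 and Per-1 and overlapped Col-0. The levels were 13.9 and 32 FPKM in Col-0×Aa-0 and 44.2 and 8.09 FPKM in Col-0×Per-1. By its mean, Col-0×Per-1 was below both of its own parents, at 26.1 FPKM against 50.7 FPKM in Col-0 and 120.1 FPKM in Per-1. Neither difference passed by limma (adjusted p = 0.276 against Col-0 and 0.135 against Per-1).

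Among the 3 parents PDF1.2b had the opposite order of means. It was at 14.4 and 6.89 FPKM in Aa-0, above all 4 Col-0 libraries at 1.21, 3.13, 6.23 and 6.81 FPKM, and at 1.68 and 0.65 FPKM in Per-1. Neither difference from Col-0 passed (1.21 ± 0.64, adjusted p = 0.23 for Aa-0, and -1.18 ± 0.64, adjusted p = 0.199 for Per-1). The difference between Aa-0 and Per-1 was 2.39 ± 0.74 (adjusted p = 0.0737), and it passed when the spread was estimated with Col-0 replicates 1 and 2 alone (adjusted p = 0.0401) or 3 and 4 alone (adjusted p = 0.0384). Col-0×Aa-0 had 6.13 and 16.4 FPKM, a range that held both Aa-0 libraries and reached into that of Col-0, and Col-0×Per-1 had 2.45 FPKM and a listing of 0. Across all 12 libraries r between PDF1.2 and PDF1.2b was -0.25, and in Col-0 both were higher in replicates 3 and 4 than in 1 and 2. The hybrids differed in PDF1.2b by 2.58 ± 0.74, which did not pass (adjusted p = 0.122). Their libraries did not overlap, but the share of all genes for which that holds was not counted, so it adds no support.

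PDF1.2c was lowest in Aa-0, at 1.37 and 1.43 FPKM, below all 10 other libraries. Per-1 had 7.56 and 2.65 FPKM and Col-0 8.36, 4.07, 21.2 and 24.1 FPKM. The difference between Aa-0 and Col-0 was -2.41 ± 0.82 (adjusted p = 0.0743), and -3.30 with Col-0 replicates 3 and 4 alone (adjusted p = 0.0226). In Per-1, where PDF1.2 was highest, it was -1.19 ± 0.82 (adjusted p = 0.308). Col-0×Aa-0 had 5.56 and 11.2 FPKM and Col-0×Per-1 18.8 and 1.79 FPKM, which left the Col-0×Per-1 libraries at either end of the hybrid range.

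Within the sum of the copies, PDF1.2b made up 24% and 27.5% in the Col-0×Aa-0 libraries, while in those of Col-0×Per-1 it made up 3.75% and 0%. It was 73.6% and 58.5% for the Aa-0 libraries, 1.23% and 0.561% for those of Per-1, and 3.23%, 11.4%, 7.27% and 5.34% for those of Col-0. These shares, computed after the values were seen and not tested, put both Col-0×Aa-0 libraries between the Aa-0 and the Col-0 libraries with no overlap. PDF1.2 itself was 54.3% and 53.7% of the sum in Col-0×Aa-0. It was 19.4% and 29.3% in the Aa-0 libraries, 93.2% and 97.2% in those of Per-1, and 67.9% to 75.7% in those of Col-0. The sum ranged from 11.8 and 19.6 FPKM in Aa-0 to 115.9 and 136.8 FPKM in Per-1, and was 27.4 to 127.6 FPKM in Col-0. In Col-0×Per-1 replicate 2, the library with the lowest relative depth, it was 9.88 FPKM, the lowest of the series, against 65.4 FPKM in replicate 1.

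**Figure D2:**
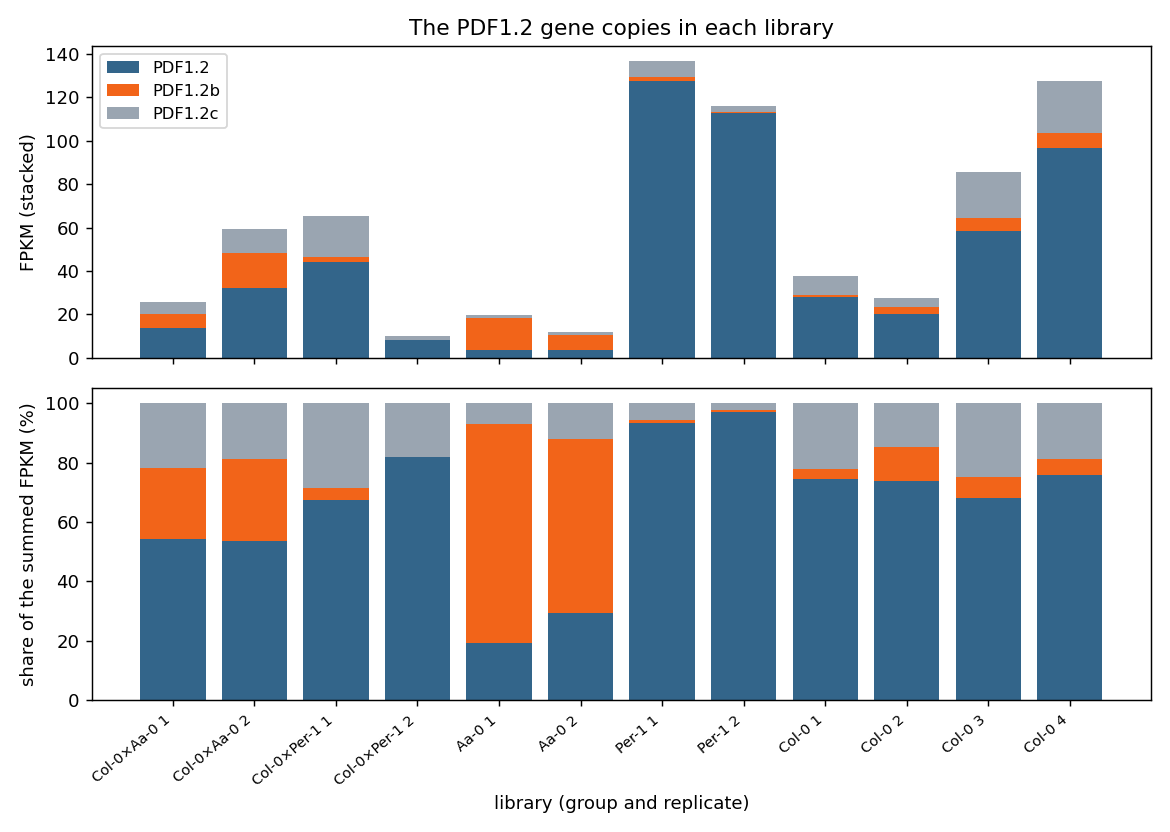
Stacked FPKM of PDF1.2, PDF1.2b and PDF1.2c (upper axis, FPKM) and the share of each copy in their sum (lower axis, percent) for each library. PDF1.2b holds 73.6% and 58.5% of the sum in Aa-0 and under 2% in both Per-1 libraries, with Col-0×Aa-0 at 24% and 27.5%.

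The GCC-box, written GCCGCC, is the sequence that ERF factors bind, and the G-box, CACGTG, is one that MYC2 binds. Both strands of the 500 bases before the annotated start of each gene were searched. The GCC-box was present before PDF1.2, PDF1.2b and ORA59, at 222, 143 and 230 bases before the start, and the G-box before ORA59 at 194 bases. Of the windows of 27443 nuclear protein-coding genes, 4.12% held a GCC-box and 9.35% a G-box. Only the Col-0 reference was read, and the part of these motifs in the levels was not tested. The stretches are printed with the matches in capitals, since the GCC-box of PDF1.2 and PDF1.2b sits in like surroundings. They are chr5:17907828-17907887 (minus strand), chr2:11088953-11089012 (plus strand) and chr1:1882650-1882745 (plus strand) of TAIR10.1, read 5′ to 3′ along each gene.
PDF1.2 upstream: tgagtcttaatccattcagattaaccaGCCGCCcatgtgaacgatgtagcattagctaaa
PDF1.2b upstream: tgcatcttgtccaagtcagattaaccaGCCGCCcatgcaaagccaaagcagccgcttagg
ORA59 upstream: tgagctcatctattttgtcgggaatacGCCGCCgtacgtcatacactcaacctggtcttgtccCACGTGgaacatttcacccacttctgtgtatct
Neither motif was in these windows of VSP1, VSP2, CORI3, THI2.1, PDF1.2c or ERF1, which says only that these letters are not there.

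Aa-0 and Per-1 were also set directly against each other. Aa-0 was lower than Per-1 in 4 of the 8 tested members and higher in 0, beside 9.96% of all tested genes called in this comparison (5.29% higher and 4.67% lower). Those 1713 calls were 783 without Per-1 replicate 1, 937 without Per-1 replicate 2 and 1106 without Aa-0 replicate 2. The count of 4 members was the same in 4 of 21 alternative fits. PDF1.2 was lower by -4.71 ± 0.81 (adjusted p = 0.0048) and ORA59 by -2.98 ± 0.60 (adjusted p = 0.012). The ORA59 call ended without Aa-0 replicate 1 (adjusted p = 0.0714) or Per-1 replicate 1 (adjusted p = 0.114). ERF1 (-1.22 ± 0.33, adjusted p = 0.0481) and VSP2 (-1.46 ± 0.40, adjusted p = 0.0484) passed narrowly. They passed in 8 and 7 of 21 alternative fits, and both calls ended without Per-1 replicate 1 (adjusted p = 0.331 and 0.338) or either Aa-0 library. Between Aa-0 and Col-0, 2 of 8 members (VSP2 and PDF1.2) were called, both lower in Aa-0, beside 16.7% of all tested genes (4.72% higher and 12% lower). Those 2870 calls over all genes were 1254 without Aa-0 replicate 1. Between Per-1 and Col-0, 1 of 8 (ORA59) was called, higher in Per-1, beside 25.7% (6.17% higher and 19.6% lower), and those 4426 calls were 1898 without Per-1 replicate 1 and 1911 without replicate 2. These comparisons share the Col-0 libraries. The median over all tested genes was -0.14 for Aa-0 and -0.19 for Per-1 against Col-0 and 0.05 between Aa-0 and Per-1. The member differences named as calls were larger, but calling picks large differences, so this adds no support.

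**Figure D3:**
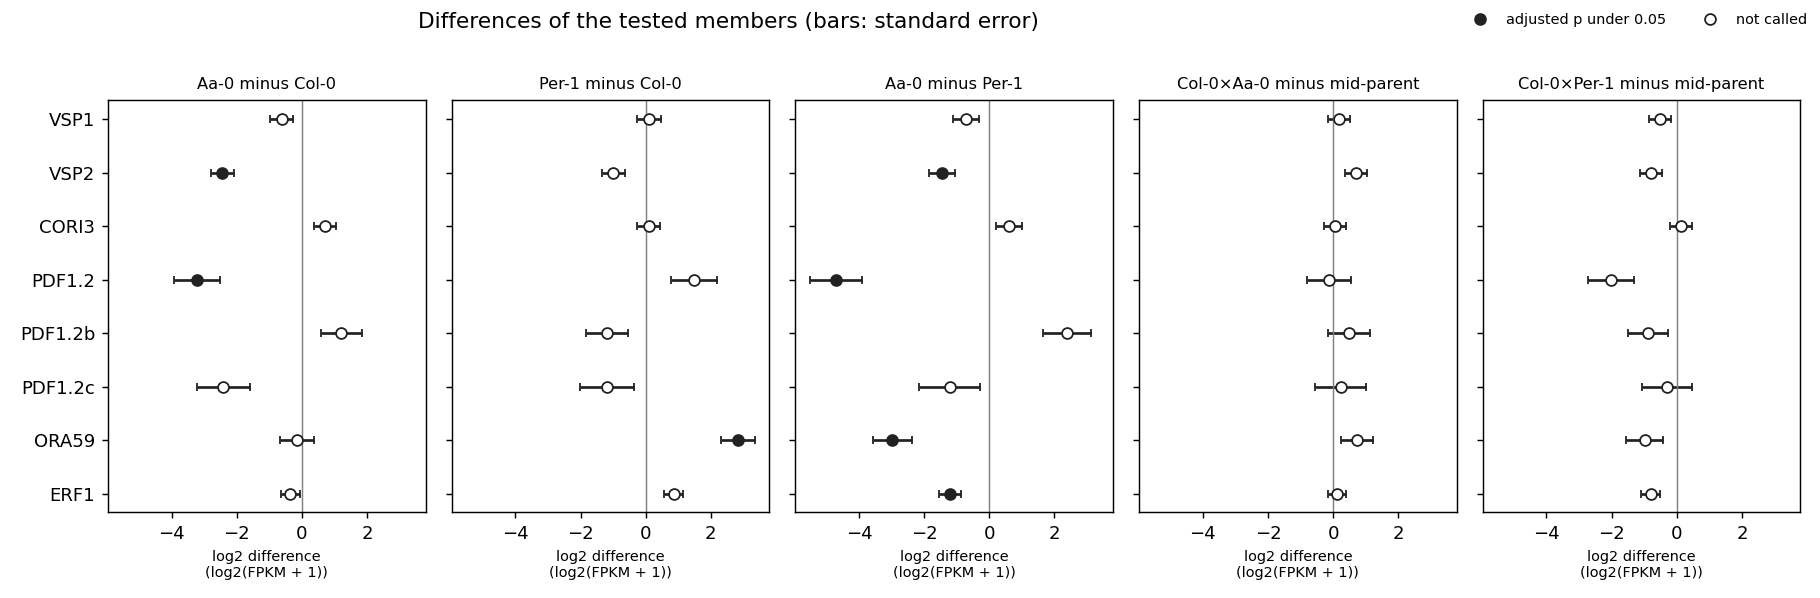
Log2 differences of log2(FPKM + 1) with standard errors for the 8 tested members in 5 comparisons, the first group named minus the second, filled where the adjusted p was under 0.05. Filled points are VSP2 and PDF1.2 for Aa-0 minus Col-0, ORA59 for Per-1 minus Col-0, and VSP2, PDF1.2, ORA59 and ERF1 for Aa-0 minus Per-1, with none against the mid-parent.

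Heterosis studies ask whether a hybrid departs from the mean of its parents. No member passed against the mid-parent by limma in either hybrid, where 0.238% of tested genes were called for Col-0×Aa-0 (0.128% higher, 0.11% lower) and 2.57% for Col-0×Per-1 (0.366% higher, 2.2% lower). Without 1 library the 41 calls for Col-0×Aa-0 ran from 5 to 35, with 8 and 5 when its own replicate 1 or 2 was left out, 19 without Aa-0 replicate 1, 23 without either Per-1 library and 27 without either Col-0×Per-1 library. The 442 calls for Col-0×Per-1 ran from 42 to 460, with 84 and 42 when its own replicate 1 or 2 was left out, 115 and 271 without Per-1 replicate 1 or 2, and 259 and 218 without Col-0 replicate 1 or 3. At an unadjusted p under 0.05 the counts were 0 and 3 of 8, and the share of all tested genes at that threshold was not counted. In Col-0×Aa-0 the deviations ran from -0.12 ± 0.68 for PDF1.2 to 0.73 ± 0.50 for ORA59 and 0.70 ± 0.33 for VSP2. There 7 of 8 lay above the mid-parent, with a median of 0.22 beside -0.05 over all tested genes. The share of all genes on each side was not counted for either hybrid. In Col-0×Per-1, 7 of 8 lay below the mid-parent, with a median of -0.80 beside -0.14 over all tested genes. PDF1.2 was at -2.02 ± 0.72 (adjusted p = 0.146), ORA59 at -0.98 ± 0.57, ERF1 at -0.80 ± 0.29 and VSP2 at -0.79 ± 0.33. When the Col-0 parent was replicates 3 and 4 alone, PDF1.2 passed (-2.28, adjusted p = 0.0374). Without Col-0×Per-1 replicate 2, it was at -0.86, ORA59 at -0.11 and PDF1.2c at 1.11. Col-0×Per-1 replicate 1 was above replicate 2 for PDF1.2, PDF1.2b, PDF1.2c, ORA59 and ERF1, while the VSP2 values of these replicates were nearly equal.

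The hybrids' own deviations differed in 0 of 8 members by limma, beside 0.233% of all tested genes (0.18% higher and 0.0523% lower), with 3 at an unadjusted p under 0.05. The largest such difference relative to its error was that of VSP2, 1.49 ± 0.42 (adjusted p = 0.311), above the mid-parent in Col-0×Aa-0 and below it in Col-0×Per-1. Against single parents, Col-0×Aa-0 differed from Aa-0 in VSP2 only (1 of 8, beside 2.74%, of which 1.87% higher and 0.872% lower) and from Col-0 in 0 of 8 (2.31% of all genes, 1.13% higher and 1.17% lower, 0 members at an unadjusted p under 0.05). Col-0×Per-1 differed from Col-0 in VSP2 (1 of 8, beside 19.9%, of which 2.66% higher and 17.3% lower) and from Per-1 in 0 of 8 (4.75%, 2.41% higher and 2.34% lower, with 3 at an unadjusted p under 0.05). The hybrids differed from each other in 0 of 8 (2.04%, 1.24% higher and 0.802% lower, with 2 at an unadjusted p under 0.05). These shares over all genes are at an adjusted p under 0.05. The share at an unadjusted p was not counted, so they cannot be set against the unadjusted counts of members. The shares also moved with single libraries. The 3426 calls between Col-0×Per-1 and Col-0 were 363 without Col-0×Per-1 replicate 2, the shallowest library, 1493 without replicate 1 and 1734 with median-ratio scaling. The 817 calls between Col-0×Per-1 and Per-1 were 393 to 542 without any 1 library of these groups. The 472 between Col-0×Aa-0 and Aa-0 were 295 without Col-0×Aa-0 replicate 1. Between Col-0×Aa-0 and Col-0 there were 160 and 166 calls, in place of 397, without replicate 1 or 2 of the hybrid. The 351 between the hybrids were 143 to 186 without any 1 hybrid library. The 40 for the deviations were 11 to 25 without any 1 hybrid library and 25 without Aa-0 replicate 1.

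The branches were also set against each other as the mean log2(FPKM + 1) of the 3 MYC-branch genes minus that of the 5 ERF-branch genes, as a description with no test. The difference was 1.52 and 0.34 in the Col-0×Aa-0 libraries, while those of Col-0×Per-1 had -0.01 and 1.82. Among the parents it was 0.70 and 1.5 for the Aa-0 libraries, 0.14 and 0.01 for those of Per-1, and 1.1, 1.33, 0.28 and 0.88 for those of Col-0. In both Per-1 libraries the branches stood nearly level, and in 11 of the 12 libraries the MYC branch was the higher. Both statements depend on the genes picked. CORI3 was the most abundant MYC-branch gene in every library and raised that mean, while VSP1 was barely present. The ERF mean held the transcription factor genes ORA59 and ERF1, low in most libraries, and the MYC mean held no such gene. Which branch was the more active was not tested. Aa-0 was low in both branches (MYC 2.87 ± 0.41, ERF 1.77 ± 0.15, SD, n = 2) relative to Col-0 (MYC 3.66 ± 0.36, ERF 2.76 ± 0.62, SD, n = 4). Per-1 had 3.39 ± 0.69 and 3.32 ± 0.59 (SD, n = 2). In Aa-0 and in Per-1 the means hide members whose differences from Col-0 had opposite signs. These were CORI3 against VSP2 in the MYC branch, and PDF1.2b against PDF1.2 in the ERF branch. Of these differences limma called only those of VSP2 and PDF1.2 in Aa-0. In Col-0 the ERF branch was lower in replicates 1 and 2 (2.32 and 2.13) than in replicates 3 and 4 (3.28 and 3.31), the same libraries that LHY separated. The part of sampling or processing in that split was not tested.

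**Figure D4:**
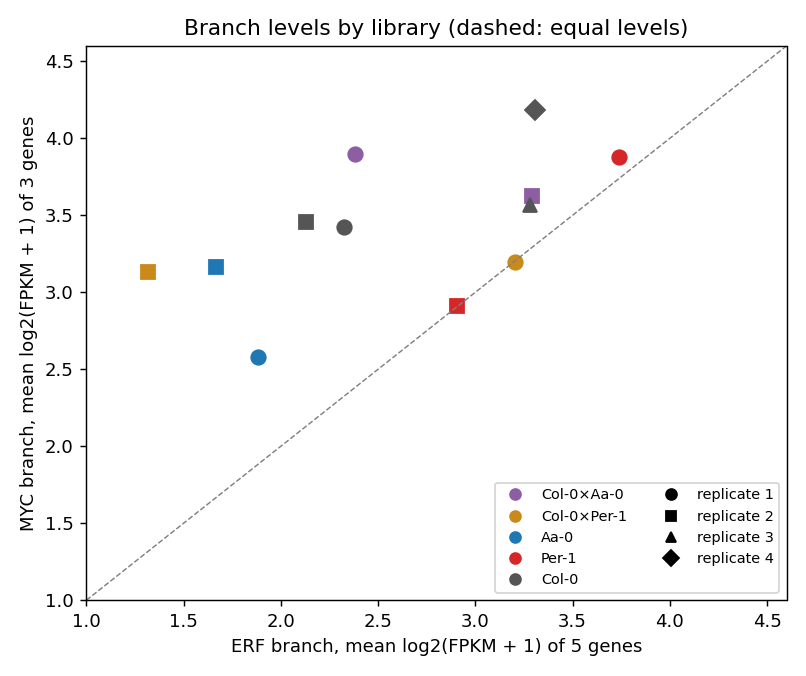
Mean log2(FPKM + 1) of the 5 ERF-branch genes (horizontal axis) and of the 3 MYC-branch genes (vertical axis), 1 point per library, with a dashed line of equal levels. The Per-1 libraries and Col-0×Per-1 replicate 1 lie at or near the line, and Aa-0 and Col-0×Per-1 replicate 2 lie at the low end of the ERF axis.

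The other genes of these pathways came from lists chosen with earlier results of the data known. Among further MYC-branch and wound genes, 3 of 17 tested were lower in Aa-0 than in Col-0 (LOX3, LOX4 and RAP2.6) and ST2A was higher, with a list median of -0.34 beside -0.14 over all genes. That is 23.5% called, beside 16.7% of all genes. LOX3, a lipoxygenase of jasmonate synthesis, had 1.58 ± 0.177 FPKM in Aa-0 and 17.1 ± 7.76 FPKM in Col-0 (SD, n = 2 and 4; difference -2.69 ± 0.43). ST2A, a sulfotransferase that acts on a jasmonate derivative, differed by 1.05 ± 0.26, with Col-0 libraries at 0.36, 0.42, 1.22 and 1.51 FPKM. In Per-1, ST2A and CYP94C1 were higher and RAP2.6 and ANAC019 lower of the same 17 (median 0.01), 23.5% called and close to the 25.7% of all genes. ANAC019, a transcription factor downstream of MYC2, had 3.26 ± 0.481 FPKM in Per-1 and 20.8 ± 6.94 FPKM in Col-0 (-2.30 ± 0.46, adjusted p = 0.0063). In Col-0×Per-1, OPR3, an enzyme of jasmonate synthesis, was below the mid-parent (-1.90 ± 0.42, adjusted p = 0.0473), the 1 call of 17, beside 2.57% of all genes.

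Of the other ERF transcription factors 2 of 8 tested were higher in Per-1 than in Col-0 and 0 lower, with a list median of 1.06 beside -0.19 over all genes. That is 25% called, beside 25.7% of all genes, of which 6.17% were higher. ERF2 had 234.1 ± 40.7 FPKM in Per-1 and 46.3 ± 18.1 FPKM in Col-0 (2.40 ± 0.48, adjusted p = 0.0062). ERF1A had 152.9 ± 43.6 FPKM in Per-1 and 39.2 ± 18.5 FPKM in Col-0 (2.03 ± 0.59, adjusted p = 0.0312). In Aa-0 against Col-0, limma called 0 of the 8, with 2 at an unadjusted p under 0.05, a threshold not counted over all genes. A list of further defence proteins gave 2 calls of 7 in Aa-0, both lower (beside 16.7% of all genes, 12% lower) and 1 of 7 in Per-1, also lower (beside 25.7%, 19.6% lower). THI2.2, a thionin and relative of THI2.1, was lower than in Col-0 in Aa-0 (-4.63 ± 0.42, adjusted p = 4.4e-05) and likewise in Per-1 (-2.2 ± 0.42, adjusted p = 0.0048). PDF1.3, a defensin beside PDF1.2b with which it shares sequence, was lower in Aa-0 (-2.29 ± 0.61, adjusted p = 0.0314). No other of the 7 tested genes of that list of 10 was called in either accession against Col-0.

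Among genes of jasmonate perception and repression, 3 of 21 were lower in Aa-0 than in Col-0, namely JAM1, MYC2 and JAZ5, a share of 14.3% that is near the 16.7% of all genes called (12% lower). MYC2, the main factor of the MYC branch, had 12.6 ± 0.311 FPKM in Aa-0, 112.4 ± 31.3 FPKM in Per-1 and 63.5 ± 23 FPKM in Col-0 (Aa-0 minus Col-0 -2.15 ± 0.50, adjusted p = 0.0163). In Per-1, JAZ10 and JAZ2 were higher and MYC4 lower, again 14.3%, below the 25.7% of all genes. In Col-0×Per-1 the genes called under the parental mean were JAZ10, JAZ2 and JAM1, the last a repressor of the MYC branch (-1.16 ± 0.25, adjusted p = 0.0409), 3 of 21 beside 2.57% of all genes. Of 9 ethylene genes 4 were higher in Per-1 than in Col-0, beside 25.7% of all genes called and 6.17% higher, among them EBF2, which removes the ethylene factor EIN3 and is itself induced by ethylene (142 ± 1.41 FPKM in Per-1 and 50.7 ± 14.9 FPKM in Col-0; 1.51 ± 0.27), EBF1 (0.91 ± 0.22) and the kinase gene CTR1 (0.72 ± 0.11). CTR1 was also higher in Aa-0 (0.54 ± 0.11, adjusted p = 0.0074), the 1 call of 9 there, beside 16.7% of all genes.

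Salicylic acid is known to hold down PDF1.2. Of its markers, 4 of 6 were higher in Per-1 than in Col-0 (PR1, PR2, PR5 and WRKY70), with a list median of 2.2 beside -0.19 over all genes, of which 25.7% were called and 6.17% higher. PR2 had 32 ± 7.36 FPKM in Per-1 and 2.50 ± 1.13 FPKM in Col-0 (3.28 ± 0.51, adjusted p = 0.0014). PR1 had 41.3 and 10.7 FPKM in the Per-1 libraries and at most 1.67 FPKM in Col-0 (3.87 ± 0.72, adjusted p = 0.0042). In Aa-0 against Col-0, limma called 0 of the 6, and 0 had an unadjusted p under 0.05. Of 8 clock genes limma called 0 in either accession against Col-0, with 1 at an unadjusted p under 0.05 in each. Over all genes 16.7% were called in Aa-0 and 25.7% in Per-1 by adjusted p, and the share at an unadjusted p was not counted. Col-0 itself was split in the clock gene LHY, at 50.6 and 51.5 FPKM against 1.57 and 1.85 FPKM. Such scatter leaves the test little power, so the count of 0 does not show that clock levels matched. The part of the salicylic acid and clock genes in the levels of the jasmonate outputs was not tested.

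The genes whose levels ran most like those of 3 members were named by Pearson's r over the 12 libraries, among tested genes that averaged 5 FPKM or more. For VSP2 they were AT3G23570 (0.93), AT1G80700 (0.91), AT5G44720 (0.91), AT2G43590 (0.90) and XYLT (0.88). For PDF1.2 they were AT5G62890 (0.95), EDA39 (0.92), HIR2 (0.91), CRCK2 (0.91) and AT1G47278 (0.91). For ORA59 the nearest was PR1 (0.94), the salicylic acid marker, followed by AGP16 (0.92), AT4G15260 (0.91), UGT72E1 (0.91) and AT1G71170 (0.91). PR1 averaged 5.28 FPKM, past that limit only through Per-1, since every other library had at most 3.83 FPKM, and Per-1 is also where ORA59 was highest. All these r describe libraries that share accessions, and the genes were picked for them. Among the members, r was 0.67 between ORA59 and PDF1.2, 0.70 between ERF1 and PDF1.2, -0.29 between ORA59 and PDF1.2b, and 0.69 between VSP2 and PDF1.2c, genes of different branches.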

How the data were processed

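First-leaf RNA was prepared with TruSeq RNA v2, which does not mark strand, per the labels' protocols. The 12 libraries were grouped by their own labels, although the series text speaks of Ler-1 and of duplicates. The deposited values are the authors' FPKM. The submitters' processing notes name the genome TAIR10 and, as tools, Cufflinks 2.0.2, TopHat2 2.0.8b, TopHat and edgeR 3.12.0, without a role, so which of them made the FPKM is not given in the sources used here. No coordinates are in the files. Names, coordinates and sequences came from RefSeq TAIR10.1, where 31416 of 34133 identifiers were found.

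The fit used R 4.3.3 and limma 3.58.1 (eBayes with trend) on log2(FPKM + 1) for the 17203 genes that reached 1 FPKM in 2 or more libraries. All 12 libraries entered a group-means model with 7 residual degrees of freedom, and calls were made at a Benjamini-Hochberg adjusted p under 0.05 over all tested genes. For the mid-parent, the fitted values of both parents were turned back to FPKM + 1, averaged and logged, and the error came from the delta method. The fit was tested on simulated data. The members and the 10 gene lists (103 genes, 83 tested) were chosen with earlier results of these data known. The rule named all members, up to 3 called list genes per list and comparison with the smallest adjusted p, and 5 genes most like VSP2, PDF1.2 and ORA59. LOX4, CYP94C1, WRKY70, LHY and RBCS1A were named after their values were seen. Alternatives changed the pseudocount, the filter, the scaling, the trend, the libraries and the mid-parent. Python 3.11.15, pandas 2.3.3 and matplotlib 3.10.9 made the tables and plots.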

Additional observations from a re-analysis of the deposited data

Results flagged for a closer look

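Effects of accession on the same contrast with Col-0 differed between Aa-0 and Per-1 in 4 members, by limma's test of Aa-0 minus Per-1. The log2 differences were -4.71 for PDF1.2 (adjusted p = 0.0048), -2.98 for ORA59 (adjusted p = 0.012), -1.22 for ERF1 (adjusted p = 0.0481) and -1.46 for VSP2 (adjusted p = 0.0484). Over all tested genes 9.96% were called in this comparison. The ERF1 and VSP2 calls held in only 8 and 7 of 21 alternative fits. Both Aa-0 libraries were below both Per-1 libraries for each of the 4. Since these were picked by the test, that separation adds no support, and its share over all genes was not counted. In Col-0, the 1 group large enough to be searched for a library far from the others, none of the 8 members with values above 0 there had one. With 4 libraries such a search cannot see a split of 2 against 2, as between Col-0 replicates 1 and 2 and replicates 3 and 4.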

How the results depend on the processing

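All 9 member differences called kept their sign in every alternative, and 2 of them (VSP2 in Aa-0 minus Col-0 and PDF1.2 in Aa-0 minus Per-1) were called in every one. Some alternatives cannot change a difference, such as another filter or leaving out a library of a group not compared. A kept sign there was fixed in advance. The number of members called moved as follows, and the cause was not tested. Per-1 minus Col-0 gave 2 (against 1) with median-ratio scaling, with quantile normalization, with the replicate block and for Col-0 replicates 1 and 2 alone (in both of the last, PDF1.2 passed at 2.29). Col-0×Per-1 minus Col-0 gave 0 (against 1) with no filter on low values, with either scaling, with the replicate block and with Col-0 replicates 1 and 2 alone, but 2 with Col-0 replicates 3 and 4 alone. Aa-0 minus Per-1 gave 2 (against 4) with no filter, 3 with a pseudocount of 0.1 FPKM, with quantile normalization, with only the groups compared and with Col-0 replicates 3 and 4 alone, and 5 for replicates 1 and 2 alone. It gave 4 in 4 of 21 alternatives. Against a reported 0, Col-0×Per-1 minus Per-1 gave 1 with Col-0 replicates 1 and 2 alone, Col-0×Aa-0 minus Col-0×Per-1 gave 1 with either pair of Col-0 libraries, and Col-0×Per-1 minus mid-parent gave 1 with Col-0 replicates 3 and 4 alone. Leaving out single libraries gave 1 to 3 for Aa-0 minus Col-0, 1 to 2 for Per-1 minus Col-0, 1 to 4 for Aa-0 minus Per-1, and 0 to 1 for Col-0×Aa-0 minus Aa-0, Col-0×Per-1 minus Col-0 and Col-0×Per-1 minus Per-1. With 1 library left in a group, that library was assumed to vary like the other groups. Deviations of same-numbered libraries correlated at -0.59 to 0.37. In groups of 2 the deviations mirror each other, so these values cannot decide whether the numbers pair the libraries. The block moved no other count of members called by over 1.5 times. Since replicates 3 and 4 exist only in Col-0, the block took them out of every comparison. With the block, Col-0 therefore rested on replicates 1 and 2, as in the fit with these alone. Over all genes the block gave 1888 calls (against 397) for Col-0×Aa-0 minus Col-0, 2265 (against 3426) for Col-0×Per-1 minus Col-0, 795 (against 351) between the hybrids, 233 (against 41) for Col-0×Aa-0 minus mid-parent, 274 (against 442) for the other hybrid, and 25 (against 40) for the difference between deviations. The difference between branches in Per-1, 0.07, was -0.038 with a pseudocount of 0.1 FPKM. Groups of 2, low values of VSP1 and ERF1, and unknown depth limit these comparisons.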
